A study of Mus musculus with 2 samples.

Results

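Genes of purinergic and adenosine signalling were examined in brain immune cells of mice with a deletion of *Arpc4* in brain myeloid cells. *Arpc4* is a subunit of the Arp2/3 complex that builds branched actin. The set was chosen by name and holds 8 of the 32285 genes of the deposited tables: *P2ry12*, *P2ry13*, *P2ry6*, *P2rx4*, *P2rx7*, *Gpr34*, *Adora3* and *Entpd1*. All 8 were counted in microglia of every mouse. Control mice were Cre-negative *Arpc4* fl/fl littermates (n = 4), and Arpc4ΔCx3cr1 mice carried the same floxed alleles with a Tg(Cx3cr1-Cre) transgene (n = 4, knockout or KO below). All mice were on a C57BL/6J background and 12 weeks old, and both groups therefore share the floxed alleles but not the Cre. The Cx3cr1 promoter drives Cre in brain myeloid cells in general, including microglia and CNS-associated macrophages (CAMs). Viable CD45+ cells were sorted from the brain, tagged per mouse and pooled into 1 library of 3′ transcript ends. The study set the genotypes side by side to learn what loss of the Arp2/3 complex does to microglia. According to the methods 1 KO mouse was unintentionally female and was left out of the study's own downstream work. No label names it, so all 8 mice were kept here, and values without KO mouse 1, the only one with high *Xist*, are given beside the results it moves.

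Cells release ATP when they are damaged or active, and enzymes on cell surfaces cut it step by step to ADP, AMP and adenosine. Microglia sense ATP through ion channels of the P2X family, ADP and UDP through G protein-coupled P2Y receptors, and adenosine through receptors of the Adora family. *P2ry12*, the ADP receptor that guides microglial processes towards an injury, is also one of the most used markers of homeostatic microglia.

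*P2ry12* (ENSMUSG00000036353) lies on the minus strand of chromosome 3 at 59216272 to 59262871 in mm10, and *P2ry13* (ENSMUSG00000036362) lies 5390 bases away on the same strand at 59207892 to 59210882. Both sit inside *Med12l*, a gene of the other strand, and 1 exon of *Med12l* overlaps an exon of *P2ry12*. *P2ry14*, a receptor for UDP-glucose, lies inside *Med12l* as well, 54274 bases beyond *P2ry13*. The pair *P2rx7* and *P2rx4* lies on the plus strand of chromosome 5, at 122643911 to 122691432 and 122707544 to 122729738, 16112 bases apart. *Gpr34* lies on the X chromosome (13632089 to 13640858) inside *Cask*, *P2ry6* on chromosome 7 (100937630 to 100974649), and *Entpd1* on chromosome 19 (40612366 to 40741602). *Adora3* (chromosome 3, 105870858 to 105908926) shares its strand and part of its length with *Tmigd3*, so reads between these genes can be split uncertainly.

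The promoters of 3 genes are shown because *P2ry12* and *P2ry13* fell side by side while *P2rx4* rose. Each is the 250 bases before the RefSeq start in GRCm38.p6, read 5′ to 3′ on the strand of the gene. RefSeq promoters were found for 6 of the 8 genes. Capitals mark GAGGAA, the core of the binding motif of the myeloid factor PU.1, and CAGACA, a SMAD motif, on either strand.
P2ry12 promoter (chr3:59262986-59263235, minus strand): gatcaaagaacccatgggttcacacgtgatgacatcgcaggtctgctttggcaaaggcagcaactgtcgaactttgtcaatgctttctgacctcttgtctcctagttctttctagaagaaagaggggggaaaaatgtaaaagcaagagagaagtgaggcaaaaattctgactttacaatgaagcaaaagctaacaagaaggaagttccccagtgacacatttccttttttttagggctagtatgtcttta
P2ry13 promoter (chr3:59210883-59211132, minus strand): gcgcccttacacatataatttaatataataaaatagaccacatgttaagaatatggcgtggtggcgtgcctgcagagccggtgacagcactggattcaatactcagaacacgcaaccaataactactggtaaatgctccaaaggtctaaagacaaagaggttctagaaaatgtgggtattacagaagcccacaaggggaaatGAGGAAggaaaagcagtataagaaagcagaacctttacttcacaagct
P2rx4 promoter (chr5:122707294-122707543, plus strand): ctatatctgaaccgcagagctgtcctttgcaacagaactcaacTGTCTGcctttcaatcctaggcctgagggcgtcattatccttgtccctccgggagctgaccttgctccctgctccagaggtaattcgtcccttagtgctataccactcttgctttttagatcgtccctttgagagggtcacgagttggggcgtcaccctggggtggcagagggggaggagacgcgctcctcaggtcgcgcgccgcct
The *P2ry13* window held 1 GAGGAA, which 23.3% of all 32851 promoter windows of this length also hold. The *P2rx4* window held 1 CAGACA on its other strand, as 17.1% of all windows do on either strand. The *P2ry12* window held neither. None of the 3 windows held, on either strand, the interferon regulatory factor motif GAAA, any 2 bases, GAAA (2.98% of all windows) or the MEF2 motif CTA, any 4 bases, TAG (3.20%). The motifs searched do not overlap one another in these windows, and a match is a stretch of letters, not a measured binding site.

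The tables hold 19864 cells with different barcodes, 0 of them shared between mice, of which 19863 were kept. Between 5251527 and 12878691 UMIs, random labels that each stand for 1 RNA molecule, were counted on genes per mouse. Clusters were named from marker genes that hold no purinergic gene, and clustering left out every purinergic gene listed here, so that the genes did not define the cells in which they were measured. Of the cells, 17036 were microglia-like (7797 control, 9239 KO), 412 CAM-like, 346 monocyte-like and 307 T cell-like, and 1505 cells in clusters of few UMIs stayed unnamed. The summed level of 12 microglia markers was 30832 to 31466 CPM (counts scaled to the same total in each sum) in control and 21201 to 23408 CPM in KO microglia-like cells, and none of the 12 was at 0. KO mouse 1 stood apart: its microglia made up 1462 of the 1519 cells of 1 cluster led by *Xist*, at 1444 CPM of *Xist* against 3.43 to 13.8 CPM in the other mice. *Arpc4* itself was 225 ± 8.72 CPM (SD, n = 4) in control and 145 ± 6.51 CPM (n = 4) in KO microglia-like cells, 1.55-fold lower (log2 fold change -0.63 ± 0.05 SE, edgeR adjusted p = 5.69e-06), with no overlap between groups. *Arpc4* overlaps Ttll3 on its strand, and where the counted 3′ end lies relative to the floxed part is not given in the sources used here.

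In microglia-like cells, both ADP receptors and the lysophosphatidylserine receptor *Gpr34* fell in KO mice, the adenosine receptor *Adora3* and the ectonucleotidase *Entpd1* fell less, and the ATP-gated channel *P2rx4* rose. The UDP receptor *P2ry6* and the channel *P2rx7* did not pass the test. Thus 5 of the 8 genes fell, 1 rose and 2 were not called, with a median log2 fold change of -0.51 against -0.01 over all genes tested. The background is broad: of 12729 genes tested across the sums of UMIs per mouse, 45.9% passed (quasi-likelihood test of edgeR, threshold of 0.05 on the adjusted p), 22.8% higher and 23.1% lower in KO. The 6 of 8 genes called stand beside that share as few genes chosen by name. In 5 of the 8 the groups did not overlap, 1 higher and 4 lower in KO, against 44.2% of all genes tested (21.8% higher, 22.3% lower). Values in the next paragraphs, and those of *Arpc4* and *Xist* above, are CPM after TMM scaling, by which edgeR equalizes libraries.

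*P2ry12* was 2755, 2527, 2601 and 2634 CPM in control mice 1 to 4, and 517, 928, 775 and 707 CPM in KO mice 1 to 4. The highest KO mouse was far below the lowest control mouse, and KO mouse 1 was the lowest of all. The means differed 3.59-fold (2629 ± 94.9 against 732 ± 171 CPM, log2 fold change -1.84 ± 0.14 SE, 95% interval -2.16 to -1.53, edgeR adjusted p = 2.65e-06). Its neighbour *P2ry13*, a second ADP receptor that also signals through inhibitory G proteins, was 349, 333, 329 and 353 CPM in control mice and 83.7, 128, 93.8 and 102 CPM in KO mice. It therefore fell in all 4 KO mice below every control mouse, by 3.35-fold (log2 fold change -1.74 ± 0.11 SE, edgeR adjusted p = 7.68e-07). *P2ry6*, through which UDP promotes uptake of particles, was 296, 306, 334 and 321 CPM in control and 351, 331, 318 and 294 CPM in KO mice. These groups overlapped throughout (log2 fold change 0.04, 95% interval -0.10 to 0.19, edgeR adjusted p = 0.64).

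**Figure D1:**
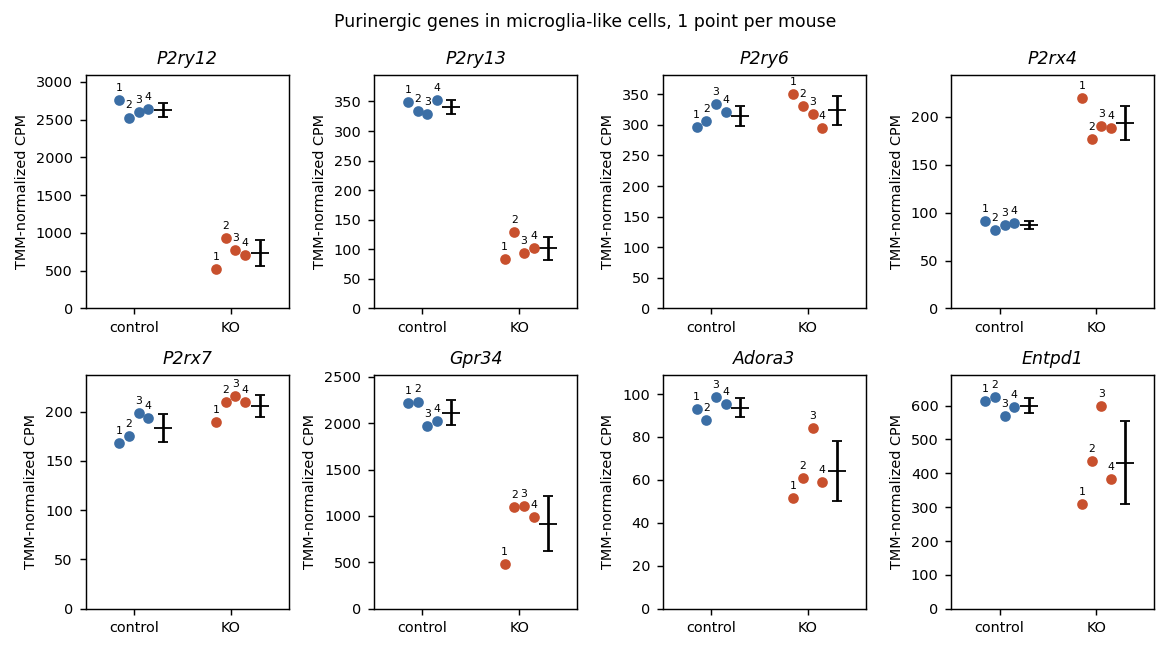
Level of each gene in microglia-like cells as TMM-normalized CPM (y axis, from 0) in control and KO mice. Each point is 1 mouse with its number, and the bars are the mean and SD of 4 mice. *P2ry12*, *P2ry13* and *Gpr34* lie lower in all 4 KO mice, *P2rx4* lies higher in all 4, and the groups overlap for *P2ry6*, *P2rx7* and *Entpd1*.

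*P2rx4*, an ATP-gated cation channel found on the surface and on lysosomes of microglia, was 90.9, 82.1, 86.9 and 88.9 CPM in control and 219, 176, 191 and 188 CPM in KO mice. All 4 KO mice exceeded all controls, with a 2.22-fold difference (log2 fold change 1.15 ± 0.07 SE, 95% interval 0.99 to 1.31, edgeR adjusted p = 6.62e-07). *P2rx7*, the neighbouring channel that opens at high ATP and is known for activating the inflammasome, was 169, 175, 198 and 193 CPM in control and 190, 210, 215 and 209 CPM in KO mice. Here the groups overlapped, and the difference missed the threshold (log2 fold change 0.16, 95% interval 0.02 to 0.31, edgeR adjusted p = 0.0677). The outcome for *P2rx7* depended on KO mouse 1: without it the log2 fold change was 0.20 (edgeR adjusted p = 0.0125). With the mouse number as a block the adjusted p was 0.0435 in edgeR.

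*Gpr34*, a receptor for lysophosphatidylserine in the P2Y-like group, was 2219, 2233, 1972 and 2023 CPM in control and 479, 1097, 1102 and 991 CPM in KO mice. KO mouse 1 was again lowest, and no KO mouse reached a control mouse. The fall was 2.30-fold (log2 fold change -1.20 ± 0.21 SE, edgeR adjusted p = 9.01e-04). *Gpr34* is X-linked and KO mouse 1 was the one with *Xist*, and without this mouse the log2 fold change was -0.99 (edgeR adjusted p = 1.79e-08). *Adora3*, the A3 adenosine receptor, was 93.0, 87.9, 98.4 and 95.2 CPM in control and 51.8, 60.9, 84.1 and 59.1 CPM in KO mice. It fell 1.46-fold, with KO mouse 3 closest to the controls but still below each of them (log2 fold change -0.55 ± 0.13 SE, edgeR adjusted p = 0.00429). *Entpd1*, which encodes CD39 and cuts ATP and ADP to AMP, was 612, 624, 570 and 594 CPM in control and 310, 435, 598 and 383 CPM in KO mice. KO mouse 3 lay within the control range and the other 3 below it. The 1.39-fold fall passed narrowly (log2 fold change -0.48 ± 0.16 SE, 95% interval -0.83 to -0.12, edgeR adjusted p = 0.0306), and it failed in 6 of the 8 fits that left out 1 mouse (adjusted p up to 0.0815), controls 1 to 4 and KO mice 2 and 4.

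The falls of *P2ry12* and *P2ry13* could not be told apart in size by their ratio within each mouse. The log2 ratio of *P2ry12* to *P2ry13* UMIs, which no scaling of the libraries changes, was 2.95 ± 0.04 in control and 2.83 ± 0.17 in KO mice (difference -0.12, exact permutation test against both directions, p = 0.257), and without KO mouse 3 the difference was -0.19 (exact permutation p = 0.0286). The ratio of *P2ry12* to *Gpr34* differed by -0.60 and that to *Adora3* by -1.30. Larger still were the differences of its ratio to *Entpd1* (-1.36), *P2ry6* (-1.92), *P2rx7* (-2.04) and *P2rx4* (-3.02). For each of these 6 ratios the 4 KO mice lay below the 4 controls, with p = 0.0286 in the exact permutation test, the smallest that 4 mice against 4 allow, and an adjusted p of 0.0333 over the 7 ratios. The difference from *Gpr34* was the least stable, with an adjusted p of 0.0667 in the exact permutation test without any 1 of the 4 controls and of 0.1 after subtraction of 10% ambient RNA.

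Shares of cells were compared next. Each cell was thinned to 1000 UMIs, which left out 4 control and 5 KO microglia-like cells. At that depth a *P2ry12* UMI was found in 91.2 ± 1.07% of control and 44.9 ± 7.59% of KO cells per mouse, and a *Gpr34* UMI in 86.0 ± 0.96% and 53.2 ± 12.3%. *P2ry13* was found in 30.0 ± 1.83% and 9.40 ± 2.12% of cells, *P2rx4* in 8.31 ± 0.12% and 16.5 ± 1.54%, and *Adora3* in 9.41 ± 0.46% and 6.29 ± 1.56%. These 5 groups did not overlap (exact permutation test against both directions, p = 0.0286 each, adjusted p = 0.0457 over the 8 genes). The share for *Entpd1*, 43.6 ± 2.78% and 31.6 ± 7.61%, overlapped (permutation p = 0.0571, adjusted p = 0.0762). It passed at 2000 UMIs per cell (66.8% and 50.4%, adjusted p = 0.0381 in the permutation test). *P2ry6* was found in 28.2% and 27.1% and *P2rx7* in 16.2% and 16.4% of cells, with overlapping groups (permutation p = 0.486 and 0.8). Without thinning, in which KO cells are deeper, the shares were 99.3% and 80.9% for *P2ry12*, 27.8% and 50.4% for *P2rx4* and 47.6% and 51.8% for *P2rx7*. Other cell classes, which should lack *P2ry12*, gave a background at the same depth that varied between classes. Its difference between genotypes was not tested in these shares. A *P2ry12* UMI was found in 30.8 ± 11.2% of control and 15.3 ± 5.03% of KO T cell-like cells, in 15.5% and 1.47% of B cell-like cells and in 5.85% and 9.20% of monocyte-like cells. The B cell-like shares rest on 6 of 44 control and 1 of 35 KO cells. Without thinning their order was reversed, at 25.3% in control and 40.9% in KO mice. In T cell-like cells the shares were 33.8% and 17.6% for *Gpr34*, 10.1% and 1.87% for *P2ry13* and 5.34% and 7.46% for *P2rx4*. Whether these cells express *P2rx4* themselves was not tested, so its share there cannot be read as background alone. The *P2rx4* share of control microglia-like cells, 8.31%, lay little above the 5.34% of control T cell-like cells. Median depth before thinning was 4979 and 4045 UMIs in T cell-like, 2086 and 4487 UMIs in B cell-like, 6901 and 4630 UMIs in monocyte-like and 3835 and 4284 UMIs in microglia-like cells. The part of this background in the shares of microglia-like cells was not tested.

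Fewer transcripts per cell, and not only fewer cells with any, were seen for *P2ry12*. Thinned to 2000 UMIs, which left out 289 control and 329 KO cells, the median microglia-like cell held 5 *P2ry12* UMIs in each control mouse and 1 in each KO mouse. At least 6 *P2ry12* UMIs were held by 43.6 to 48.7% of the cells of a control mouse and by 0.33 to 5.22% of those of a KO mouse. Among cells with any *P2ry12* UMI the mean was 5.63 ± 0.17 in control and 2.12 ± 0.31 in KO mice.

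The 8 genes did not follow one pattern across microglial states. Microglia-like cells fell into 12 clusters, 4 mostly of control and 8 mostly of KO cells, which are described here without a test. Cluster means are over control mice in the former and over KO mice in the latter, for mice with at least 10 cells of the cluster. Cells of the other genotype in a cluster are left out of them. In the 4 control clusters, means of *P2ry12* over mice ranged only from 2722 to 2909 CPM, whereas *P2rx7* ranged from 99.2 to 222 CPM and *Entpd1* from 396 to 729 CPM. Cluster 7, with the lowest median depth of the 4 (2317 UMIs), was lowest for *P2rx4*, *P2rx7* and *Entpd1* and highest for *P2ry13* (482 CPM), *Gpr34* (2919 CPM) and *Adora3* (139 CPM). CPM in the passages on clusters, on levels across cell classes and on T cell-like cells are scaled by the total alone. Those beside the edgeR tests in CAM-like cells and of the other pathway genes are after TMM scaling.

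Among the 8 KO clusters the level of *P2ry12* differed up to 4.62-fold. It was lowest in cluster 6, led by *Ms4a7* and haemoglobin genes (346 ± 111 CPM, n = 4), and nearly as low in cluster 8, led by the chemokine genes *Ccl4* and *Ccl3* (362 ± 92.0 CPM, n = 4). It was highest in cluster 11, led by *Arhgap15* and *Negr1* with the CAM marker Mrc1 among its 5 leading genes (1596 ± 299 CPM, n = 3), with cluster 1 next (901 CPM). *P2ry13*, *Gpr34* and *Adora3* were lowest in cluster 6 as well, at 55.5 ± 18.3, 467 ± 180 and 26.5 ± 8.97 CPM. *P2rx4* followed another order. It was 233 ± 103 CPM in cluster 5 (n = 3), 225 ± 15.3 CPM in cluster 6, 214 ± 14.8 CPM in cluster 8, 192 ± 20.5 CPM in cluster 1, 181 ± 29.4 CPM in cluster 10 and 169 ± 32.6 CPM in cluster 4. It was lowest in cluster 11, at 124 ± 38.4 CPM, and in cluster 9, led by *Apoe*, at 114 ± 14.2 CPM, where *P2ry12* was the third lowest (571 ± 291 CPM). Cluster 9 was lowest for *P2rx7* (77.5 CPM) and *Entpd1* (202 CPM) and cluster 11 highest for both (261 and 591 CPM). *P2ry6* was the steadiest, between 243 and 340 CPM. Cluster 5 holds nearly only cells of KO mouse 1 (1462 of 1519), so the cluster and the identity of that mouse cannot be told apart. Its means weigh 3 mice equally and so rest in part on 11 cells of KO mouse 2 and 34 of KO mouse 4.

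**Figure D2:**
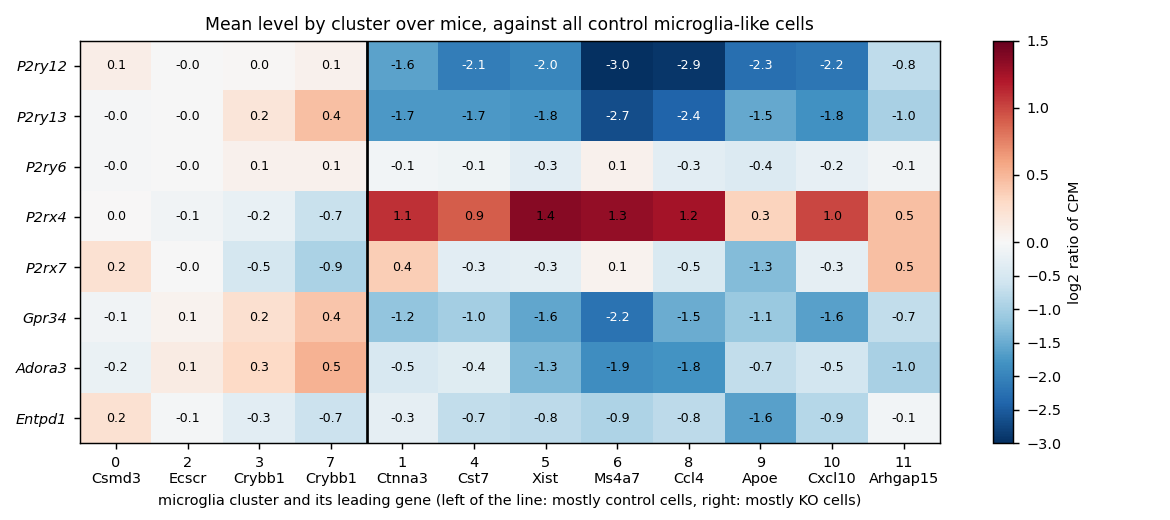
Mean level over mice in each microglia cluster, as the log2 ratio to all control microglia-like cells, with 1 row per gene and 1 column per cluster under its number and leading gene. Clusters left of the line hold mostly control cells and those right of it mostly KO cells, and each mean is over mice of that genotype only. *P2ry12* runs from -3.0 in cluster 6 to -0.8 in cluster 11, while *P2rx4* is above 0 in all 8 KO clusters.

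In CAM-like cells *P2ry12* and *Gpr34* fell, and neither *P2ry13* nor *P2rx4* passed the test. For *P2ry12* the estimate was smaller than in microglia-like cells as counted, but with 25% ambient RNA subtracted it was larger, at -2.75 against -2.36 on the log2 scale. The subtracted profile is the same for every mouse. Taking the same CPM from both groups enlarges a fall by itself, so these values cannot show in which cell type it is larger. Of 3390 genes tested over 287 control and 125 KO CAM-like cells, 1.03% passed, 0.56% higher and 0.472% lower in KO. Among the 7 members tested there, *P2ry12* and *Gpr34* fell and 5 were not called, and *Adora3* was too low to be tested. The same 2 were without overlap between groups, as were 6.17% of all genes tested. *P2ry12* was 689, 702, 762 and 697 CPM in control and 260, 454, 300 and 427 CPM in KO mice, the latter from 143 UMIs (log2 fold change -1.0 ± 0.21 SE, edgeR adjusted p = 0.0246). *Gpr34* was 497, 768, 781 and 643 CPM in control and 156, 322, 423 and 229 CPM in KO mice (log2 fold change -1.26 ± 0.26 SE, edgeR adjusted p = 0.0216). Over 13 alternatives its log2 fold change ranged from -2.29 to -1.05. The call for *P2ry12* was lost in 6 of the 8 fits that left out 1 mouse, each control and KO mice 1 and 3 (adjusted p 0.0558 to 0.109), and that for *Gpr34* in 3, controls 2 to 4 (0.0568 to 0.105). With the mouse number as a block the adjusted p of *P2ry12* was 0.0986. *P2ry13* (log2 fold change -0.51, 95% interval -1.19 to 0.17), *P2rx4* (0.35, -0.16 to 0.86), *P2ry6* (0.16), *P2rx7* (-0.14) and *Entpd1* (-0.13) did not pass. *Arpc4* was 219 ± 36.1 CPM in control and 266 ± 31.5 CPM in KO CAM-like cells (log2 fold change 0.28, edgeR adjusted p = 0.683), so that in these cells its transcript was not lower in mice labelled as KO.

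Whether the effect differed between the cell types was tested in 1 model with both sums of each mouse, in which 6.37% of 11107 genes passed, 0.999% with a higher and 5.37% with a lower effect in CAM-like cells. The effect of the genotype was higher in CAM-like than in microglia-like cells, on the log2 scale, by 1.11 ± 0.34 SE for *P2ry13* (edgeR adjusted p = 0.0213) and by 0.72 ± 0.24 SE for *P2ry12* (0.0457). For *P2rx4* it was lower by -0.94 ± 0.24 SE (edgeR adjusted p = 0.00359). *Gpr34* (-0.17, 95% interval -0.66 to 0.32), *P2ry6* (0.00), *P2rx7* (-0.46), *Entpd1* (0.23) and *Adora3* (1.58, 0.09 to 3.07) did not pass. Over 11 alternatives the difference for *Gpr34* ranged from -1.17 to -0.04 without passing, so its closeness between the cell types was not stable. Over all genes the median of this difference was -0.18, and -0.07 when RLE factors replaced TMM. For *P2ry12* and *P2ry13* the difference points against that shift and for *P2rx4* it exceeds it. The calls of *P2ry12* and *P2ry13* did not survive subtraction of 10% ambient RNA (log2 difference 0.45 and 1.16, adjusted p = 0.468 and 0.109), nor several fits with 1 mouse left out. That of *P2rx4* failed only without control mouse 3 (-0.81, adjusted p = 0.0688).

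**Figure D3:**
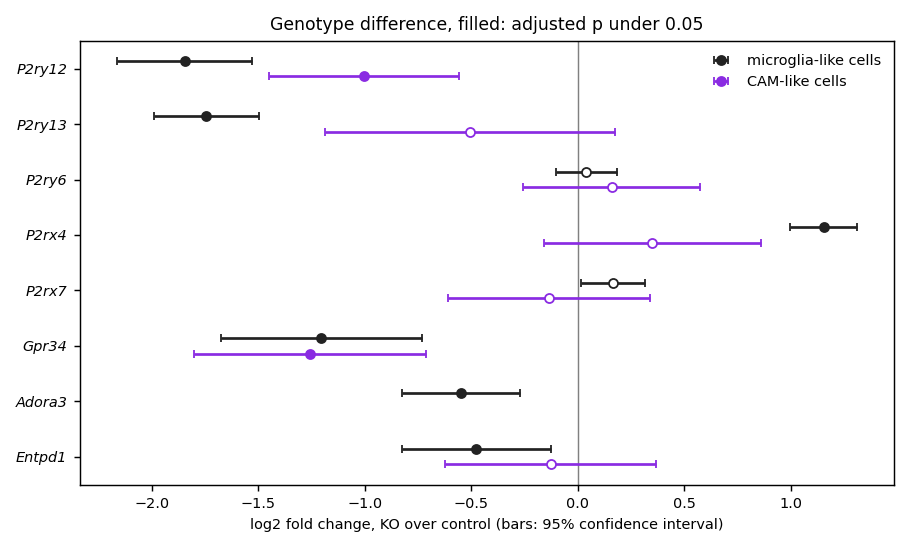
Log2 fold change of each gene between KO and control mice (x axis) in microglia-like and CAM-like cells, with 95% confidence intervals and filled points at an adjusted p under 0.05. As counted, *P2ry12*, *P2ry13* and *P2rx4* lie farther from 0 in microglia-like than in CAM-like cells, and the estimates for *Gpr34* lie close together. The closeness for *Gpr34* did not hold under all alternatives. Subtraction of 25% ambient RNA, not drawn here, turned the order for *P2ry12*, but cannot show in which cells it fell more.

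Levels across cell classes differed by gene, given here as a description. In control mice *P2ry12* was 2723 ± 83.3 CPM in microglia-like, 611 ± 24.2 CPM in CAM-like and 112 ± 82.5 CPM in monocyte-like cells. *Gpr34* followed the same order, at 2187 ± 131, 577 ± 113 and 158 ± 72.5 CPM. *P2rx7* was higher in CAM-like (463 ± 40.4 CPM) than in microglia-like cells (190 ± 15.8 CPM), and so was *P2rx4* (161 ± 38.3 against 90.3 ± 3.69 CPM). *P2ry6* did not differ beyond its spread between these classes (324 ± 55.4 and 326 ± 18.9 CPM). *Adora3* was at 2.26 to 14.5 CPM in CAM-like and 91.3 to 102 CPM in microglia-like cells of control mice, and *Entpd1* at 260 ± 58.4 and 622 ± 24.3 CPM. In KO mice the *P2ry12* level of microglia-like cells, 705 ± 171 CPM, lay close to that of control CAM-like cells.

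*P2ry12* UMIs were also counted in T cell-like cells, a comparison made after their values were seen. These cells held 950 ± 110 CPM of *P2ry12* in control and 222 ± 79.3 CPM in KO mice (exact permutation test against both directions, p = 0.0286), more than the control CAM-like cells did. In each mouse this was 22.0 to 39.7% of the level of its own microglia-like cells (34.9% in control and 30.7% in KO mice, permutation p = 0.343). All 12 microglia markers were detected in the T cell-like cells of every mouse, together at 10161 to 12265 CPM in control and 7242 to 9424 CPM in KO mice. In the CAM-like cells these 12 markers were at 14215 to 16604 CPM in control and 13273 to 17713 CPM in KO mice, none at 0. Droplets with at most 100 UMIs, which hold RNA of all mice together, had 1102 CPM of *P2ry12*, 1673 CPM of *Gpr34*, 215 CPM of *P2ry13* and 112 CPM of *P2rx4*. The part of such RNA in the levels of CAM-like cells was tested only by subtraction of the ambient profile, in which the log2 fold change of *P2ry12* was -1.38 at 10% (edgeR adjusted p = 0.0243) and -2.75 at 25% (0.0655). This profile is common to all mice and cannot remove a part that differs between mice.

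**Figure D4:**
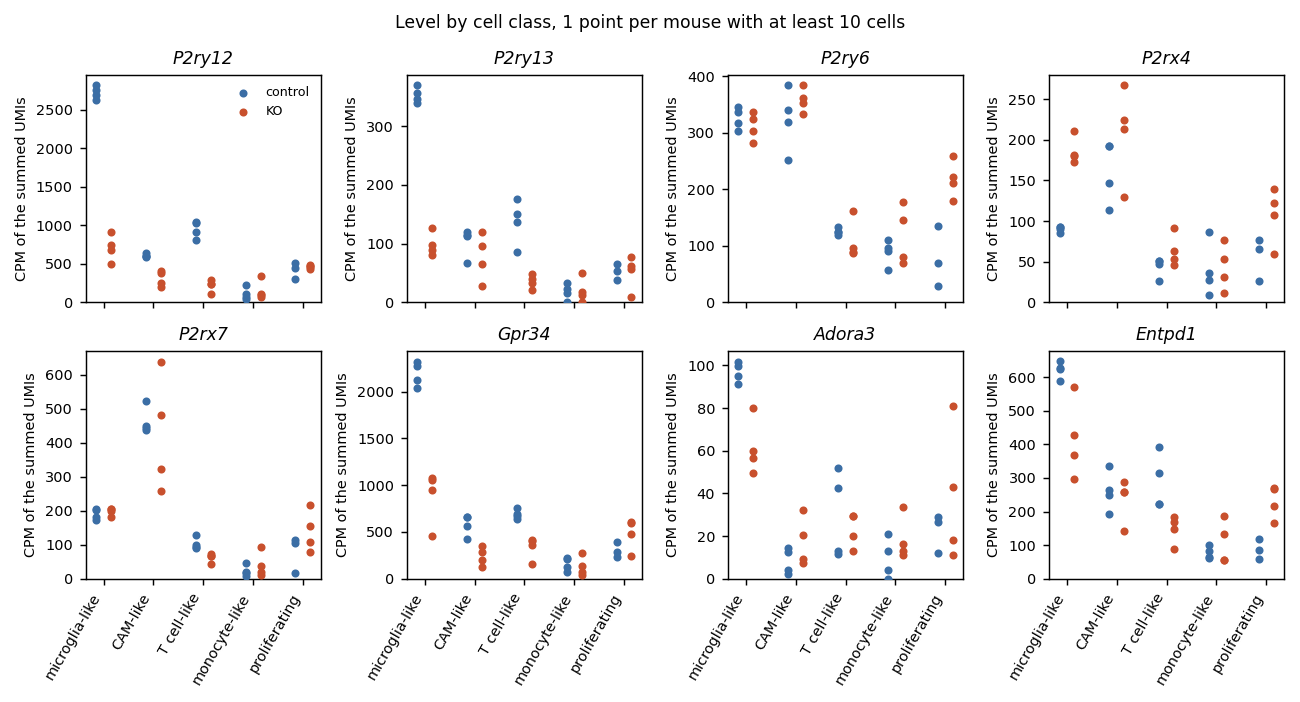
Level of each gene in 5 cell classes as CPM of summed UMIs (y axis, from 0), with 1 point per mouse that has at least 10 such cells. The proliferating cluster is led by *Elane* and *Prtn3*. *P2ry12* of control T cell-like cells (810 to 1043 CPM) lies above that of control CAM-like cells (588 to 645 CPM), and *P2rx7* is highest in CAM-like cells.

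Other genes of the pathway moved in both directions, and the counts below are to be read against the 45.9% of all genes that passed (22.8% higher, 23.1% lower). Of the 7 P2Y receptors 4 could be tested in microglia-like cells, of which 2 fell, 1 rose and *P2ry6* was not called. The one that rose was *P2ry14*, from 1.11 to 2.10 CPM in control mice to 31.8, 13.4, 25.1 and 22.1 CPM in KO mice 1 to 4. It rose at the locus where *P2ry12* and *P2ry13* fell, by a log2 fold change of 4.05 ± 0.31 SE (edgeR adjusted p = 2.41e-06). *Med12l*, the gene of the other strand that spans all 3, fell from 184 ± 2.46 to 88.2 ± 8.84 CPM (log2 fold change -1.06, edgeR adjusted p = 9.05e-07). Of 4 P2X receptors tested, *P2rx4* rose, *P2rx1* fell from 5.03 ± 1.03 to 0.63 ± 0.40 CPM (log2 fold change -2.98 ± 0.34 SE, edgeR adjusted p = 3.78e-05), and *P2rx3* and *P2rx7* were not called. Both adenosine receptors tested changed: beside the fall of *Adora3*, the A1 receptor gene *Adora1* rose from 0.63 ± 0.23 to 7.76 ± 3.95 CPM (log2 fold change 3.55 ± 0.46 SE, edgeR adjusted p = 9.98e-05).

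Of 5 tested genes of nucleotide-cutting enzymes (*Entpd1*, *Entpd5*, *Entpd6*, *Entpd7* and *Enpp1*) only *Entpd1* was called. *Nt5e*, which makes adenosine from AMP, was too low to be tested. The counts of this paragraph, too, stand beside the 45.9% of all genes tested that passed, 22.8% higher and 23.1% lower in KO. In adenosine uptake and metabolism 4 of 6 genes fell and 1 rose. The falls were those of the deaminase *Ada* (log2 fold change -1.45, at low levels, from 1.84 ± 0.52 to 0.68 ± 0.07 CPM), the phosphorylase *Pnp* (-1.07, from 280 ± 8.0 to 134 ± 35.1 CPM) and the nucleoside transporters *Slc29a1* (-0.72) and *Slc29a3* (-0.33). The rise was that of adenosine kinase, *Adk* (0.45). Of 3 genes of nucleotide release, the vesicular nucleotide transporter *Slc17a9* (-0.44) and the anion channel subunit *Lrrc8a* (-0.38) fell and *Panx1* was not called. Among genes of lysophosphatidylserine signalling, *P2ry10b* fell (-1.36, from 41.3 ± 1.12 to 16.2 ± 3.87 CPM), as did the lipase gene *Abhd6* (-0.61), while *Abhd12* and *Abhd16a* were not called. Of 11 G protein genes tested 5 fell and 2 rose, led by *Gng10* (-0.76) and *Gng5* (0.58), and *Gnai2*, the inhibitory subunit through which *P2ry12* signals, fell by 0.22 on the log2 scale. The adjusted p of each pathway gene called among these was between 9.81e-06 and 0.0310 in edgeR. Of 12 tested neighbours of the members other than *P2ry12* and *P2ry13*, 5 fell and 2 rose, and the phosphodiesterase gene *Pde2a* changed most, from 11.3 ± 2.08 to 0.38 ± 0.08 CPM (log2 fold change -4.85 ± 0.24 SE). *Cask*, which holds *Gpr34*, did not pass (-0.22, edgeR adjusted p = 0.0687), nor did *Camkk2* beside *P2rx4* (-0.02), and *Tmigd3*, which overlaps *Adora3*, fell by 0.53 on the log2 scale. In CAM-like cells, no listed gene other than *P2ry12* and *Gpr34* was called. Many could not be tested there, among them all adenosine receptors and nucleotide release genes, *P2ry14*, *P2rx1*, *Med12l*, *Ada*, *Adk* and *Pde2a*.

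**Figure D5:**
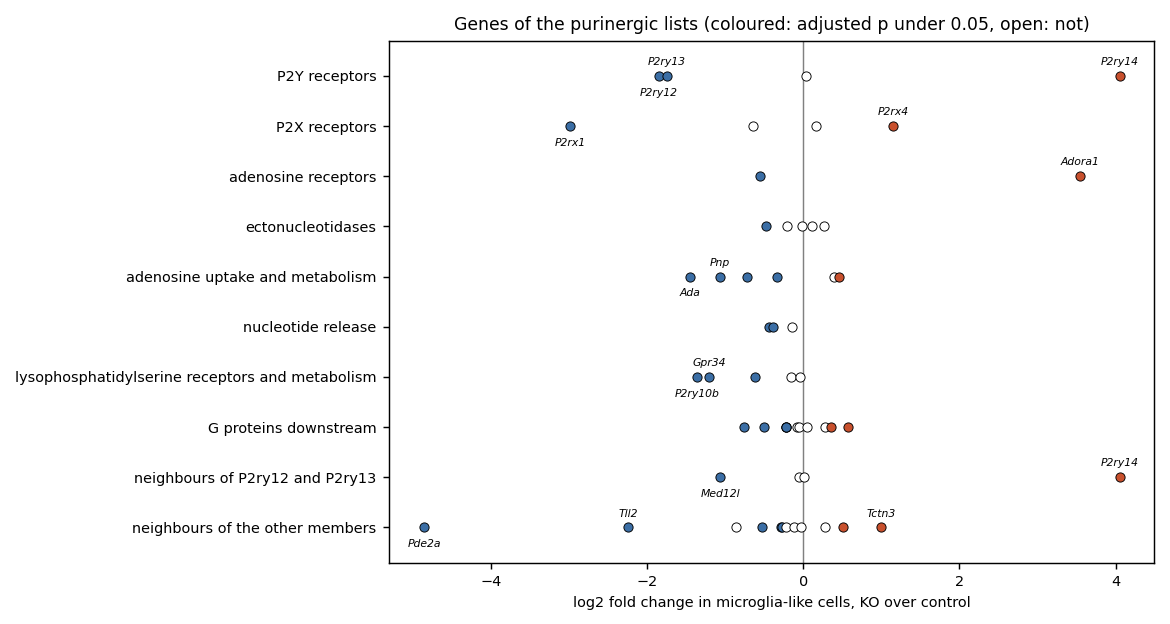
Log2 fold change between KO and control microglia-like cells (x axis) of the tested genes of each list (rows), coloured where the adjusted p was under 0.05 and open otherwise. *P2ry14* and *Adora1* lie farthest to the right among receptors and *P2rx1* farthest to the left.

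Genes whose levels followed a member most closely were ranked by Pearson's r over 18 cell classes and microglia clusters, among 7310 genes, as a description; the points share mice, library and depth. *P2ry12* was followed by *Gna15* (0.979), *Ptgs1* (0.977) and *Siglech* (0.974), and *P2ry13* by *Rhob* (0.972), *P2ry12* (0.966) and *Tmem119* (0.960). *Gpr34* was followed by *Csnk1e* (0.983), *Fscn1* and *Glul*, *Adora3* by *Tmem100* (0.955), *Fam167b* and *Adgrg1*, and *Entpd1* by *Qk* (0.973), *Krcc1* and *Hpgds*. *P2rx4*, the gene that rose, was followed by *Mmp14* (0.924), *Aig1* and *Cxcl16*, at lower values than the rest. *P2rx7* was followed by *Sbf2* (0.971), *Tnfrsf11a* and *Frmd4b*, and *P2ry6* by *Ifnar2* (0.975), *Gpr183* and *Asah1*.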

How the data were processed

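Single cells of 4 control and 4 Arpc4ΔCx3cr1 mice, 12 weeks old, were tagged per mouse and pooled. The authors aligned reads to mm10 with Cell Ranger (7.1.0 in the file headers, 6.1.2 per the labels) and deposited raw UMI counts, not normalized, per mouse and for the pool. Groups came from the tag labels, and the labelled tag was the leading one in 98.9 to 100% of the cells of each mouse. The labels speak of 6 multiplexed samples but name 8 tags. No doublet caller was run, and the SoupX step of the methods was not used here.

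Cells were kept from 200 detected genes upwards if mitochondrial UMIs made up no more than 20%, and clustered with Seurat 5.3.0 (20 principal components, resolution 0.8) without the listed purinergic genes and named from fixed marker lists. The clustering of microglia-like cells also left out *Arpc4*, *Xist*, *Tsix*, *Ddx3y*, *Eif2s3y*, *Kdm5d* and *Uty*. UMIs were summed per mouse and class and tested with edgeR 4.0.16 (filterByExpr, TMM, quasi-likelihood, Benjamini-Hochberg) in R 4.3.3, over all genes. DESeq2 1.42.0 was an alternative. The difference between classes was fitted with the mouse as a block. Ratios and thinned shares were compared with exact permutation tests. Tests were tried on simulated data first. Summed counts per mouse of 4 control and 4 KO mice carry the replication, and p-values measure the spread between mice of 1 library. Positions are from GENCODE vM21 (32158 of 32285 identifiers matched). Named genes were the 8 members, the listed pathway genes and neighbours, the 3 genes most like each member, *Arpc4* and *Xist*. Members, lists and tests were chosen with earlier results of these data known. Alternatives were other scalings, tools and filters, each mouse left out, a block on mouse number, ambient RNA subtraction, other cell sets and a coarser clustering (resolution 0.4). One alternative, added after seeing the data, left out the cluster with the platelet gene *Gp9* among its leading genes (*Gp9* 59.7 CPM there, with *Ppbp*, *Gp1bb* and *Gp5* at 0 UMIs), and another added the unnamed clusters.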

Additional observations from a re-analysis of the deposited data

Results flagged for a closer look

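Listed genes, *Arpc4* and *Xist* included, whose genotype effect differed between CAM-like and microglia-like cells by the test of the interaction term are given here. They are single genes chosen by name and are not read as a share. Of all 11107 genes tested in that model 6.37% passed, 0.999% with a higher and 5.37% with a lower effect in CAM-like cells. On the log2 scale, as CAM-like minus microglia-like, the differences were 1.11 for *P2ry13*, 0.72 for *P2ry12*, -0.94 for *P2rx4* and -3.51 for *P2ry14*. They were 6.52 for *Pde2a*, 0.76 for *Pnp*, -1.77 for *Med12l*, -0.69 for *Gnas* and -3.41 for *Xist*, which was high only in KO mouse 1. *P2ry14*, *Pde2a* and *Med12l* were too low to be tested in CAM-like cells alone. In CAM-like cells *Arpc4* itself was not lower in KO mice, and its own difference was 0.79 (edgeR adjusted p = 0.0193, and 0.0527 to 0.0704 without control mouse 2 or 4 or KO mouse 1 or 3). T cell-like cells held *P2ry12* at 34.9% of the microglial level in control mice, and the part of ambient RNA in these differences was tested only by subtraction of 10% ambient RNA, after which *P2rx4* passed (-1.08) and *P2ry12* (0.45) and *P2ry13* (1.16) did not. With 25% subtracted the difference was not fitted, and *P2ry12* fell by 2.75 on the log2 scale in CAM-like and by 2.36 in microglia-like cells. Subtracting 1 profile common to all mice enlarges such falls by itself, so their order cannot be read from these values.

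Of 64 groups of 4 mice examined for a mouse far from the others, 1 was found, where chance gives about 1 in 20. The *P2rx7* level of control CAM-like cells, after TMM scaling, was 601 CPM in control mouse 4 against 512 to 522 CPM in the other 3, a gap of 0.883 of the range. KO mouse 1, lowest for *P2ry12*, *P2ry13*, *Gpr34*, *Adora3* and *Entpd1*, did not lie beyond this limit for any of the 8 genes.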

How the results depend on the processing

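In microglia-like cells *P2ry12*, *P2ry13*, *Gpr34* and *P2rx4* kept direction and call under all 21 alternatives, with log2 fold changes of -2.36 to -1.71, -2.61 to -1.63, -1.78 to -0.99 and 1.09 to 1.5. *Adora3* lost its call only where a fold change over 2 was asked for, and *Entpd1* under 9 of 21, including all cells (adjusted p = 0.0693) and 25% ambient RNA subtracted (0.0543). The count of 5846 genes became 1569 with a fold change over 2. With 1 mouse left out it was 5187 to 6368, and with the number of the mouse as a replicate block 5518. The 35 genes of CAM-like cells became 117 without a filter, 11 with the replicate block, 23 and 2 with 10% and 25% ambient RNA subtracted, and 7 to 64 with 1 mouse left out, 7 without control mouse 3 and 64 without KO mouse 4. The 707 genes of the interaction were 577 to 678 with 1 mouse left out. They were 557 without the mouse itself as a block, a fit that ignores that both sums come from the same mouse. In that fit *P2ry12* and *P2ry13* were not called (edgeR adjusted p = 0.117 and 0.0914). The cause of these changes was not tested. The numbers of the mice pair nothing: deviations of mice with the same number correlated by -0.075 to -0.012, and 0 of the 8 mice correlated best with its own number. The block on mouse number also called *P2rx7* in microglia-like cells (edgeR adjusted p = 0.0435). Of 8 shares 5 passed, and 0 to 6 with 1 mouse left out, 0 without any 1 of the 4 controls, where 4 genes at the smallest p give an adjusted p of 0.0571. Of 7 ratios 6 passed, and 5 to 7 with 1 mouse left out. The lowest cluster mean of *P2ry12*, 346 CPM, was 351 CPM at resolution 0.4. In all cells at that resolution, the CAM-like cluster held 1645 cells and had *Ms4a7* and haemoglobin genes among its leading genes. CAM-like sums rest on 22 to 112 cells per mouse, which limits what could be detected there.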

Other observations

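Some cells lay in clusters dominated by the other genotype, although no purinergic gene took part in the clustering. In KO mouse 2, 124 microglia-like cells (5.31%) fell into the 4 clusters mostly of control cells, where they held 2097 CPM of *P2ry12*, 1977 CPM of *Gpr34*, 100 CPM of *P2rx4* and 196 CPM of *Arpc4*. The other 2210 cells of this mouse held 854, 1033, 176 and 142 CPM. KO mice 3 and 4 had 38 and 5 such cells, at 2070 and 2073 CPM of *P2ry12*, and KO mouse 1 had 0. In reverse, 50 to 132 cells of each control mouse lay in the clusters mostly of KO cells, with 1362 to 1539 CPM of *P2ry12* and 152 to 190 CPM of *P2rx4*. The remaining cells of the controls held 2716 to 2922 CPM of *P2ry12* and 80.2 to 87.3 CPM of *P2rx4*. These are values of cells sorted by cluster, with no test.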
